A study of Mus musculus with 9 samples.

Results

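The 41 genes described here encode the contractile apparatus of skeletal muscle and the proteins that set its fibre type, read by symbol from the 55342 gene names of all 9 libraries. They fall into 14 genes typical of fast fibres, 9 typical of slow fibres, 2 myosins of developing muscle and 16 genes that both fibre types use. The assignment follows textbook knowledge and not these data. Of the 41, 36 had enough counts to be among the 16523 genes tested. The other 5 genes, Myh3, Myh7, Myl2, Myl3 and Tnnc1, were left out by the filter on low counts, and 4 of these 5 are slow fibre genes.

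A sarcomere is the contractile unit of striated muscle, in which myosin thick filaments pull on actin thin filaments anchored at the Z disc, and calcium acting through the troponin complex switches the pull on. Skeletal muscle builds most of these proteins from gene families with separate fast and slow members, so the ratio of family members reports fibre type while their sum follows the amount of muscle. The muscles of the mouse face and lips are mainly fast-twitch.

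RNA was measured in biopsies of labial mucosa from mice of the strains Tac111, Tac146 and B6, which had been infected before biopsy. The agent is not given in the sources used here, nor are the age of the mice and the alleles of the strains. Each strain had 3 libraries of polyadenylated RNA, numbered 1, 2 and 3 in Tac111, 2, 3 and 4 in Tac146, and 1, 2 and 3 in B6. The labels call the cells T cells in Tac111 and Tac146 and type 1 innate lymphoid cells (ILC1) in B6, so that strain and labelled cell type change together in each comparison with B6. Separate animals are not stated, so the p-values speak only of the spread among these libraries, part of which may be technical.

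Total expected counts ran from 27192359 to 46456500 per library. Levels are in CPM, which divide counts by the TMM-scaled size of each library. Each log2 fold change has its standard error (SE) and a p adjusted over the 16523 genes tested. The libraries held transcripts of whole mucosa with muscle. The summed level of 10 keratinocyte markers was 75418 to 86835 CPM in Tac111, 79979.9 to 105311 CPM in Tac146 and 74937 to 111625 CPM in B6. By contrast, 10 T cell markers summed to 7.15 to 9.48 CPM in Tac111, 8.63 to 10.8 CPM in Tac146 and 14.6 to 20 CPM in B6. Most of the Tac111 sum was Trbc2, a T cell receptor constant region, at 5.55, 6.90 and 7.68 CPM. Cd3d, Cd3e and Cd3g, which encode the CD3 chains that define T cells, and Cd8a had 0 counts in all 3 Tac111 libraries. In Tac146 those 4 genes had 3, 21, 60 and 5 counts in all. In B6, labelled ILC1, they had 83, 135, 231 and 21. Ptprc, which encodes the leukocyte protein CD45, was at 4.49, 5.06 and 4.54 CPM in Tac111, 12.5, 11.9 and 10.1 CPM in Tac146 and 11.0, 10.8 and 11.9 CPM in B6. The sum of 10 ILC1 and natural killer cell markers was 0.939 to 1.12 CPM in Tac111, 7.34 to 10.7 CPM in Tac146 and 7.48 to 10.5 CPM in B6. Defining genes of the labelled T cells were thus not detected in Tac111, and transcripts of the labelled cell types were rare elsewhere beside those of epithelium and muscle. Every value is one of bulk tissue, where fewer muscle fibres and less RNA per fibre cannot be told apart.

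The 41 genes together took 6.10, 5.73 and 6.03% of the expected counts of Tac111, 5.09, 5.23 and 3.37% of those of Tac146 and 6.43, 5.86 and 5.40% of those of B6. The means were 5.96 ± 0.198% in Tac111, 4.56 ± 1.04% in Tac146 and 5.90 ± 0.519% in B6 (SD, n = 3 each). The Tac111 and B6 libraries overlapped, and all Tac146 libraries lay below every library of the other strains. Replicate 4 of Tac146 stood apart from replicates 2 and 3 of its own strain. The fast genes made up 2.90 to 3.08% of counts in Tac111, 1.70 to 2.72% in Tac146 and 2.80 to 3.34% in B6, and the 16 shared genes took nearly all the rest. The 9 slow genes took 0.0359 to 0.0412% in Tac111, 0.0461 to 0.0520% in Tac146 and 0.0438 to 0.0459% in B6. Sums over the 41 genes are given without a test, since the genes share each library's tissue content.

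**Figure D1:**
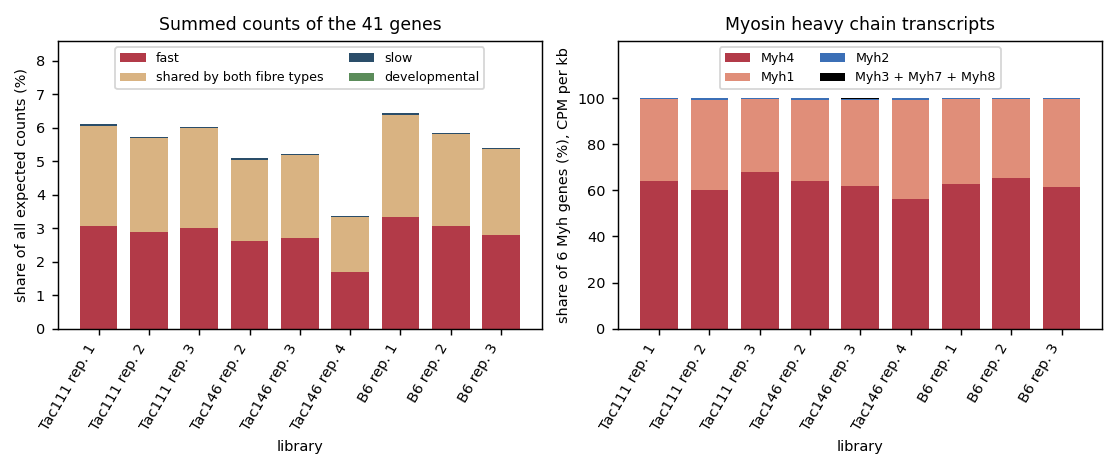
Left, share of all expected counts (%) taken by the 41 genes in each of the 9 libraries, stacked by role; right, share (%) of the summed CPM per kilobase of 6 myosin heavy chain genes. The total was lowest in Tac146 replicate 4 at 3.37%, and Myh4 and Myh1 filled nearly all of the right-hand bars in every library.

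The myosin heavy chains, the motor proteins of the thick filament, were almost entirely those of the fastest fibres. Compared per kilobase of exon, Myh4, the heavy chain of type IIb fibres, took 64.1, 60 and 67.9% of the 6 heavy chain genes in Tac111, 64.1, 62.1 and 56.1% in Tac146 and 62.8, 65.2 and 61.7% in B6. Myh1, the heavy chain of type IIx fibres, took 31.8 to 39.3% in Tac111, 35.3 to 43.1% in Tac146 and 34.5 to 38.0% in B6. Myh2, of the more oxidative type IIa fibres, took 0.293 to 0.663% in Tac111, 0.514 to 0.727% in Tac146 and 0.266 to 0.469% in B6. These shares overlapped between the strains except for Myh2, whose 3 Tac146 values all exceeded the 3 B6 values. The perinatal heavy chain Myh8 stayed at or below 0.0316%, and the embryonic Myh3 and slow Myh7 were each below 0.007% in every library. Myh7 had 60 counts and Myh3 95 counts over all 9 libraries.

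Of these genes, 5 lie in a cluster on chromosome 11 in GRCm38, in the order Myh3 (chr11:67078300-67102291, plus strand), Myh2 (chr11:67171027-67197517, plus strand), Myh1 (chr11:67200052-67224575, plus strand), Myh4 (chr11:67238029-67260446, plus strand) and Myh8 (chr11:67277124-67308634, plus strand). Myh7 lies apart at chr14:54970684-54994626, minus strand. Neighbours in the cluster differed by orders of magnitude in level per kilobase. Their coding sequences are alike, and of the 50-base windows of its transcripts Myh1 shares 25.4%, Myh2 22.9% and Myh4 18.9% with another gene. Reads in those windows could be assigned to either gene, so the low values of Myh2 and Myh8 are less certain than the high ones of Myh4 and Myh1.

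The 250 bases before the annotated starts of the 2 abundant heavy chains, of their scarce neighbour Myh2 and of slow Myh7 are shown because these 4 genes span the range of levels in the family. They are from RefSeq on GRCm38.p6, written 5′ to 3′ on the strand of the gene, for Myh4 at chr11:67237562-67237811, plus strand, Myh1 at chr11:67199852-67200101, plus strand, Myh2 at chr11:67170777-67171026, plus strand and Myh7 at chr14:54994627-54994876, minus strand. Capitals mark matches on either strand to the TATA box TATAAA, to CAGCTG, a form of the E-box CANNTG bound by myogenic factors, and to the binding motif of MEF2.
Myh4: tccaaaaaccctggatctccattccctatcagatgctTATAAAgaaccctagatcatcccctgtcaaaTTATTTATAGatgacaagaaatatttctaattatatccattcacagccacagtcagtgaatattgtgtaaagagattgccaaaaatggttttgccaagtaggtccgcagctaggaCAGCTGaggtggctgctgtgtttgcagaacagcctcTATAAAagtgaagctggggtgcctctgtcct
Myh1: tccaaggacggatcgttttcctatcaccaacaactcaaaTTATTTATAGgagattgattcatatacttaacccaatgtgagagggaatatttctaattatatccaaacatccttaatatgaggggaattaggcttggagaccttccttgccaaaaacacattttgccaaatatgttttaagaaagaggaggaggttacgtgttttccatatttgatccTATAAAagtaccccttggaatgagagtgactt
Myh2: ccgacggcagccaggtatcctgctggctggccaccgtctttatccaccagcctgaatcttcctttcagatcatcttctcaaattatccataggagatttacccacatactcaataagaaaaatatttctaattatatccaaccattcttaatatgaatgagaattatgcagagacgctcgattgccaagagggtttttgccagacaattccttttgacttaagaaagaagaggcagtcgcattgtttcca
Myh7: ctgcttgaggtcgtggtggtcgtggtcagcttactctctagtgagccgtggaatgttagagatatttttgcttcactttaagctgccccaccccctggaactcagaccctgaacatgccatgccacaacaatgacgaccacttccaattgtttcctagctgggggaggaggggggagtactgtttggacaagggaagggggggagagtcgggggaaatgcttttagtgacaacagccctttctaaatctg
Myh4 and Myh1 each hold a TATAAA, 31 and 32 bases before the start, and a MEF2 match further out, at 182 and 211 bases, which overlaps a TATAAA on the reverse strand. Myh4 also has a TATAAA at 213 and a CAGCTG at 67 bases. Starts are those of RefSeq, which differ from the GENCODE gene starts for Myh4 and Myh1. Myh2 and Myh7 have none of these letters in the stretch shown, which says nothing of the factors themselves. Myh2 has a TATAAA just past it, 11 bases into the annotated transcript.

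Promoter windows of 300 bases (250 before and 50 after the start) could be matched for 33 of the 41 genes. CAGCTG was in 17 of them (51.5%), against 18.3% of the 27025 promoters in the table. The looser CANNTG was in 29 (87.9%), against 75% of all. TATAAA was in 9 (27.3%), those of Acta1, Myh1, Myh2, Myh3, Myh4, Myh8, Myl1, Myl2 and Tnnt1, against 15.7% of all, and the MEF2 motif was in 6 (18.2%), those of Myh1, Myh4, Myh8, Myoz2, Pvalb and Ttn, against 2.16% of all. Not matched were Myoz1, Tnni2, Actn3, Atp2a2, Myot, Tnnt3, Neb and Tcap. These are descriptions of letters in a window and were not tested.

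Against the fast genes, the slow genes were scarce in every library. Summed counts of the 9 slow genes were 1.32, 1.42 and 1.19% of those of the 14 fast genes in Tac111, 1.78, 1.70 and 3.06% in Tac146 and 1.31, 1.5 and 1.58% in B6. All Tac146 values were above all values of the other strains, and the highest was that of replicate 4. Most slow counts were those of Atp2a2, the slow-fibre and heart calcium pump that most other cells also use, and of Tpm3, the slow tropomyosin, which also has non-muscle products. Without both, the other 7 slow genes took 0.00697 to 0.00829% of all counts in Tac111, 0.00447 to 0.00703% in Tac146 and 0.00496 to 0.00739% in B6. Restricted to the troponins, which are muscle proteins, the slow Tnni1, Tnnt1 and Tnnc1 were 0.437, 0.372 and 0.439% of the fast Tnni2, Tnnt3 and Tnnc2 in Tac111, 0.579, 0.490 and 0.560% in Tac146 and 0.402, 0.479 and 0.325% in B6. The Tac146 libraries were again above the rest on this measure, with replicate 4 between the others of its strain. This measure rests mostly on Tnnt1, which averaged 27.8 CPM in Tac146, beside 2.01 CPM for Tnni1. The shares of the 7 slow genes above overlapped between the strains. Their ratio to the fast genes is not given, so a shift over the slow genes without Atp2a2 and Tpm3 is not shown. These ratios are a description with no test.

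Within the slow group, Tnnt1, slow troponin T, was at 29.7, 25.7 and 41.5 CPM in Tac111, 32.9, 29.8 and 20.5 CPM in Tac146 and 28.7, 27.9 and 19.1 CPM in B6. The Z-disc protein Myoz2 was at 36.9, 40.2 and 41.8 CPM in Tac111, 32.6, 31.4 and 23.2 CPM in Tac146 and 40.1, 33.7 and 29.4 CPM in B6. Slow troponin I, Tnni1, was at 2.12, 2.17 and 2.70 CPM in Tac111, 2.37, 1.84 and 1.81 CPM in Tac146 and 2.72, 2.23 and 2.55 CPM in B6. None of these 3 genes passed the edgeR test in any comparison (lowest adjusted p = 0.0725, for Myoz2 in Tac111 against Tac146, where DESeq2 called it), and their libraries overlapped between strains apart from Myoz2 in that comparison. Slow troponin C (Tnnc1), which is also the cardiac form, had 40 counts in all 9 libraries together. The slow and ventricular light chains were as rare, with 26 counts for Myl2 and 6 for Myl3. Per kilobase, the slow members ran from 0.00860 CPM for Myl3 to 38.0 CPM for Atp2a2 as means over the 9 libraries.

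The fast and shared genes held the top of the same scale. Skeletal alpha-actin, Acta1, led with a mean of 4311 CPM per kilobase over the 9 libraries (range 2737 to 5202), followed by fast troponin C (Tnnc2) at 2335 (1332 to 3690.2) and fast troponin T (Tnnt3) at 2087 (1228 to 2823). The fast calcium pump Atp2a1 had 1953 CPM per kilobase and myoglobin (Mb), which stores oxygen, 1606. The ranges of neighbouring genes in this order overlapped widely. Fast members themselves spanned a wide range, since Actn3 averaged 17.4 and Myh2 7.31 CPM per kilobase. The giant proteins titin (Ttn), nebulin (Neb) and the calcium release channel Ryr1 stood at 9.30, 27.1 and 27.3 CPM per kilobase.

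In Tac111 against B6, levels of the 36 tested genes were centred on no change, and the lowest estimates were those of Actn3 and Mybpc2. None of the 36 passed the edgeR test at an adjusted p of 0.05, against 3.82% of all genes (1.02% higher and 2.8% lower). An unadjusted p under 0.05 was found for 4. Shares of all genes at that unadjusted threshold, or by DESeq2, are not given here or for the later comparisons. DESeq2 called 2 genes lower, Actn3 and Mybpc2, and limma on log2(CPM + 1) none. The median log2 fold change of the 36 was 0.01, beside 0.02 for all genes tested. The 3 Tac111 libraries all lay above the 3 B6 libraries for 1 gene, Tpm1, and below them for 7 genes, against 13.7% and 15.8% of all genes, or 29.6% with no overlap in either direction. The share of lower genes was thus near that of all genes. The 7 lower genes were Actn3, Mybpc2, Atp2a1, Atp2a2, Neb, Ryr1 and Pygm.

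Actn3 encodes alpha-actinin-3, the Z-disc crosslinker found in fast fibres, and was the member with the greatest difference in this comparison. It lies at chr19:4861216-4877909, minus strand, in GRCm38. Actn3 was at 33.7, 41.1 and 40.3 CPM in Tac111, 53.8, 40.4 and 23.3 CPM in Tac146 and 74.0, 69.3 and 77.6 CPM in B6. All Tac111 libraries and all Tac146 libraries were below the lowest B6 library, and the Tac146 libraries spread most. The log2 fold change was -0.94 (SE 0.23, edgeR adjusted p = 0.0539) in Tac111 against B6 and -0.91 (SE 0.23, edgeR adjusted p = 0.302) in Tac146 against B6, so that neither passed the threshold. In Tac111 against Tac146 it was -0.03 (SE 0.23, edgeR adjusted p = 0.943).

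Across the 20 alternative fits, the adjusted p of Actn3 ran from 0.00107 to 0.152 in Tac111 against B6 and was under 0.05 in 9 of them, including those without Tac146 replicate 2 or replicate 4, with log2 fold changes of -1.0 to -0.86. In Tac146 against B6 it was under 0.05 in 2 of 20 (range 0.0125 to 1). There the log2 fold change was -1.22 (SE 0.20, edgeR adjusted p = 0.0504) without Tac146 replicate 2, the lowest of the 20, -0.64 without Tac146 replicate 4, where Actn3 was 49.4% of the mean of the other Tac146 libraries, and -0.43 with the level of other muscle genes as a covariate. Its paralogue Actn2, which all fibres use, had 0.06 (SE 0.12, edgeR adjusted p = 0.807) in Tac111 against B6. In Tac146 against B6 Actn2 had -0.47 (SE 0.12, edgeR adjusted p = 0.302), with all Tac146 libraries below all B6 libraries. Actn3 counts were 5.02, 6.60 and 7.18% of Actn2 counts in Tac111, 11.2, 9.11 and 6.32% in Tac146 and 11.9, 11.3 and 14.1% in B6. The ratio separated each of Tac111 and Tac146 from B6 without overlap, though Tac146 replicate 2 (11.2%) was close to the lowest B6 library (11.3%). Actn3 and Actn2 share 0.0701% of Actn3's 50-base windows, so reads could be told apart almost everywhere.

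Mybpc2, fast myosin-binding protein C, which tethers the thick filament, likewise stood highest in B6. It was at 85.1, 94.2 and 73.5 CPM in Tac111, 85.3, 69.4 and 56.0 CPM in Tac146 and 136, 109.8 and 136 CPM in B6, with no overlap of B6 and either other strain. The log2 fold change was -0.59 (SE 0.16, edgeR adjusted p = 0.0649) in Tac111 against B6 and -0.86 (SE 0.16, edgeR adjusted p = 0.0684) in Tac146 against B6. Under the 20 alternatives it was called lower in 8 in Tac111, including those without Tac146 replicate 2 or replicate 4, and in 3 in Tac146, including that without Tac146 replicate 2. Mybpc1, the slow-type isoform that fast fibres carry as well, was at 852, 829 and 790.1 CPM in Tac111, 716, 776 and 586 CPM in Tac146 and 859.7, 861 and 792 CPM in B6, with a log2 fold change of -0.02 (SE 0.11, edgeR adjusted p = 0.918) in Tac111 against B6. In Tac146 against B6 Mybpc1 had -0.27 (SE 0.11, edgeR adjusted p = 0.67), with all Tac146 libraries below all B6 libraries. Mybpc2 counts were 9.31 to 11.4% of Mybpc1 counts in Tac111, 8.95 to 11.9% in Tac146 and 12.7 to 17.1% in B6. A transcript on the opposite strand, Gm44646, overlaps 192 exonic bases of Mybpc2, and the strand setting of the counting is not given in the sources used here.

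**Figure D2:**
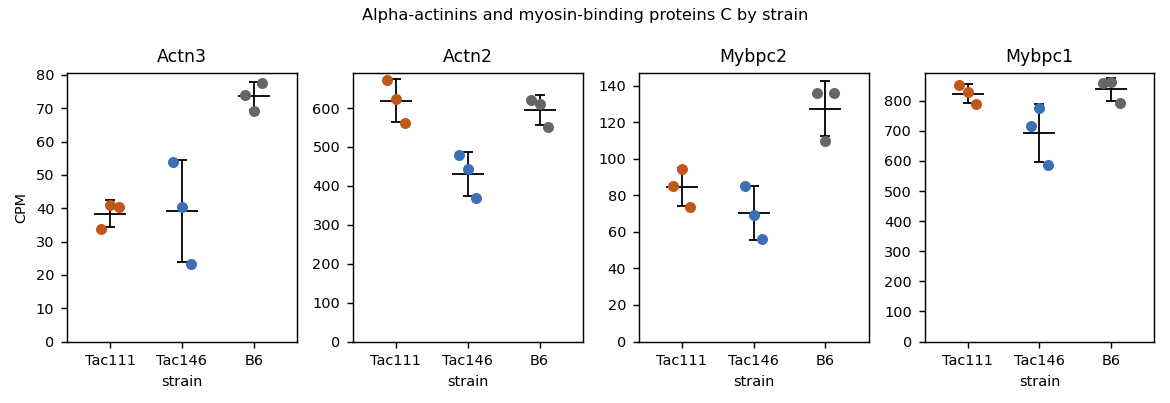
CPM of Actn3, Actn2, Mybpc2 and Mybpc1 in each library (points) with the mean and SD of each strain (bars, n = 3). The B6 points of Actn3 (69.3 to 77.6 CPM) and Mybpc2 (109.8 to 136 CPM) lie above all points of Tac111 and Tac146. Those of Actn2 and Mybpc1 overlap with Tac111 but also lie above all points of Tac146.

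The other members without overlap in Tac111 against B6 differed less. Atp2a1, the calcium pump of fast fibres, was at 7108, 6419 and 6298 CPM in Tac111, 6412, 6956 and 4280.3 CPM in Tac146 and 8369.7, 7657 and 7603 CPM in B6, with a log2 fold change of -0.25 (SE 0.18, edgeR adjusted p = 0.421) in Tac111 against B6. Neb, the ruler of the thin filament, had -0.39 (SE 0.17, edgeR adjusted p = 0.212), Ryr1 had -0.26 (SE 0.19, edgeR adjusted p = 0.433) and Pygm, muscle glycogen phosphorylase, had -0.14 (SE 0.13, edgeR adjusted p = 0.559). Atp2a2 had -0.37 (SE 0.13, edgeR adjusted p = 0.149). None of these passed the threshold. Tpm1, a tropomyosin that covers myosin sites on actin, was the 1 gene with all Tac111 libraries higher, at 0.27 (SE 0.17, edgeR adjusted p = 0.373). The fast heavy chains were close to B6, with log2 fold changes of -0.12 (SE 0.19) for Myh4 and -0.16 (SE 0.15) for Myh1.

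In Tac146 against B6, most members had estimates below 0, and the lowest were those of Actn3 and Mybpc2. The median log2 fold change of the 36 was -0.34, beside 0.01 for all genes, and 30 of the 36 were below 0. Again none of the 36 passed the edgeR test, against 0.303% of all genes (0.194% higher and 0.109% lower). An unadjusted p under 0.05 was found for 13, and DESeq2 called 3 lower, Actn3, Mybpc2 and Actn2, while limma called none. The 0.303% is of edgeR calls and is no background for these counts. All Tac146 libraries lay below all B6 libraries for 21 of the 36 members, against 6.29% of all genes, and above them for 0 of the 36, against 6.36% of all genes (12.7% in either direction). Without Tac146 replicate 4 the same number, 21, lay below B6 (9.75% of all genes), and the median was -0.18. With the level of other muscle genes as a covariate the median was -0.01. Those 60 genes had a median of -0.33 themselves, so that fit takes out any difference that muscle genes share. Fibroblast and adipocyte markers leaned the same way here. All 7 fibroblast markers were below 0 (median -0.28) and 5 of 6 adipocyte markers (median -0.45), none of them called, and their summed levels were 1369.8 to 2547 and 116 to 191 CPM in Tac146, against 2206 to 3109 and 163 to 242 CPM in B6. In neither list did any gene have libraries without overlap. The adipocyte median was -0.84 in Tac111 against B6, where that of the muscle members was 0.01. Other medians in Tac146 against B6 were -0.12 (endothelial), -0.12 (Schwann and nerve), 0.02 (smooth muscle) and 0.01 (keratinocyte). They were -0.01 for leukocyte, 0.23 for ILC1 and natural killer cell and -1.73 for T cell markers. The part of these tissues in the muscle values was not tested.

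The lower values were spread over thin and thick filament genes of fast fibres and over the shared genes. Of the 14 fast genes 13 were below 0, with a median of -0.37, and of the 16 shared genes 15, with a median of -0.35. Acta1 was at 6091, 6039.9 and 4204 CPM in Tac146, against 7990.0, 6795 and 7016 CPM in B6, a log2 fold change of -0.42 (SE 0.16, edgeR adjusted p = 0.654). Myh4 was at 5667, 6216 and 3687 CPM in Tac146, against 6943, 7521 and 6254 CPM in B6 (-0.41, SE 0.19). Creatine kinase (Ckm), which buffers ATP, was at 3130.1, 3064 and 1846 CPM in Tac146, against 3951, 3404 and 3647 CPM in B6 (-0.45, SE 0.19). In all 3 genes replicate 4 was the lowest library and the other Tac146 libraries were also below the lowest B6 library. The genes that did not lean downwards were Myh2 (0.43), Tnnt1 (0.14), Atp2a2 (0.21), Tpm3 (0.07), Myh8 (0.03) and Ttn (0.03), and none of these passed the test.

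Replicate 4 of Tac146 was the lowest of the 9 libraries for 29 of the 36 tested genes. Its levels had a median of 67.9% of the mean of Tac146 replicates 2 and 3 over the 36 genes, 63.0% over the fast genes, 70.1% over the shared genes and 69.3% over 60 other skeletal muscle genes, while the median of all genes was 100%. Genes of other tissues were low in it as well, with medians of 61% over 7 fibroblast markers, 47.9% over 6 adipocyte markers and 70.9% over 6 leukocyte markers. The fibroblast genes Dcn and Lum, of collagen-binding proteoglycans, stood at 53.9% and 46.2%, and Adipoq, the adipocyte hormone adiponectin, at 38%. The 10 keratinocyte markers had a median of 121% and the 6 Schwann and nerve markers one of 114%. The part of this tissue makeup in the muscle values was not tested. The reduction was uneven within the 36 genes. Parvalbumin (Pvalb), the calcium buffer of the fastest fibres, stood at 42.1% of the other Tac146 libraries, the titin cap Tcap at 48.4% and Casq1, the calcium store protein, at 54.7%. By contrast, Neb was at 85.5%, Myh2 at 93.4%, Tpm3 at 113% and Atp2a2 at 129%.

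**Figure D3:**
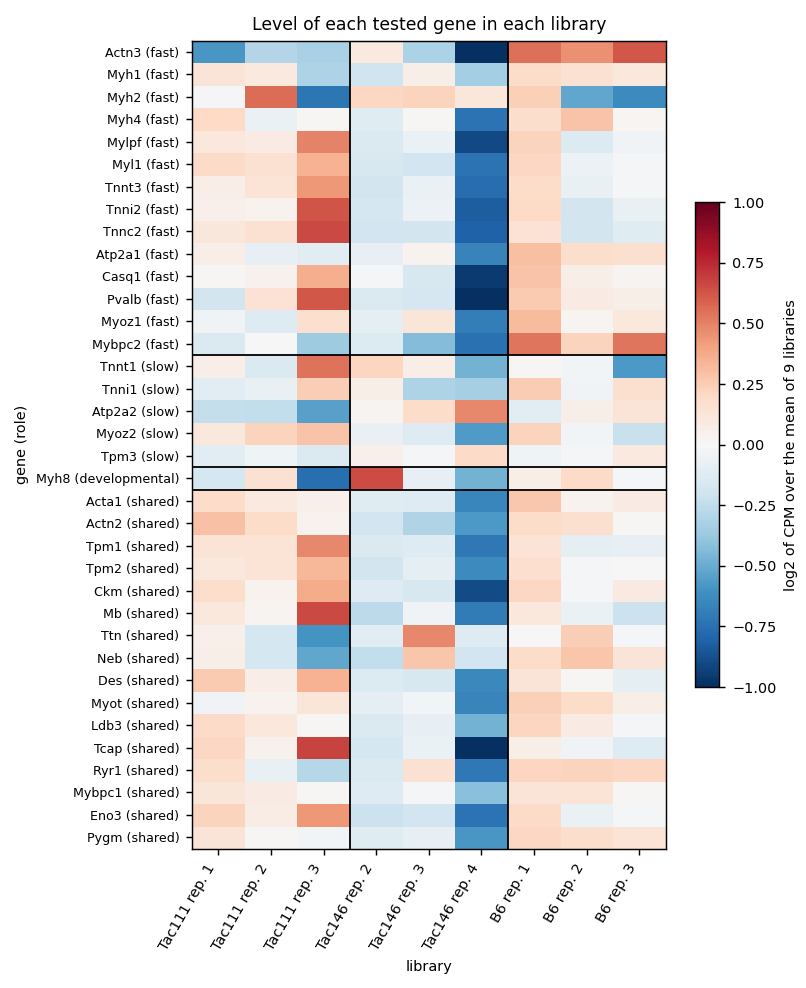
Level of each of the 36 tested genes in each library as log2 of CPM over the mean of the 9 libraries, ordered by role, with the colour scale ending at -1 and 1. The column of Tac146 replicate 4 is low for all but a few genes, Tac111 replicate 3 is high for short genes such as Tnnc2 and Tnni2, and Actn3 and Mybpc2 are high in the 3 B6 libraries.

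In Tac111 against Tac146, muscle genes were mostly higher in Tac111. Of the 36, 3 were called higher in Tac111 than in Tac146 (Myl1, Actn2 and Eno3) and 1 lower (Atp2a2), or 4 in all. Of all genes, 2.62% were called higher and 6.27% lower, 8.89% in sum. An unadjusted p under 0.05 was found for 19 of the 36, and DESeq2 called 16, of which 15 were higher: Myl1, Mylpf, Tnnc2, Tnni2, Tnnt3, Myoz2, Acta1, Actn2, Ckm, Des, Eno3, Mb, Tcap, Tpm1 and Tpm2. The other, Atp2a2, was lower. The 8.89% is of edgeR calls and is no background for the unadjusted and DESeq2 counts. The median log2 fold change was 0.31, beside 0.02 for all genes, and 29 genes were above 0. All Tac111 libraries were above all Tac146 libraries for 19 genes and below for 2, Atp2a2 and Tpm3, against 17.1% and 18.4% of all genes (35.5% in either direction). Without Tac146 replicate 4 the median was 0.18 and none of the 36 was called. Leaving out Tac146 replicate 2 gave 5 calls, and leaving out any other library gave 0 to 2. With the level of other muscle genes as a covariate the median was 0.03 and again none was called. Those 60 genes had a median of 0.34 themselves, so that fit cannot check a difference that muscle genes share.

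Myl1, the essential light chain of fast myosin, was at 1726, 1684 and 1923 CPM in Tac111, against 1353, 1323 and 906 CPM in Tac146, a log2 fold change of 0.57 (SE 0.16, edgeR adjusted p = 0.0488). Actn2 was at 672, 623 and 561 CPM in Tac111, against 479, 444 and 369 CPM in Tac146, with 0.52 (SE 0.12, edgeR adjusted p = 0.0282). Eno3, the muscle enolase of glycolysis, was at 1594, 1441 and 1844 CPM in Tac111, against 1179.7, 1199 and 817 CPM in Tac146, with 0.61 (SE 0.16, edgeR adjusted p = 0.0455). In each of these 3 genes the lowest Tac111 library exceeded the highest Tac146 library. In B6, Myl1 was at 1741, 1453 and 1492 CPM, Actn2 at 622, 611 and 551 CPM and Eno3 at 1558, 1305 and 1353 CPM. For all 3 genes the B6 libraries overlapped with those of Tac111 and lay above all Tac146 libraries. The adjusted p ran from 0.00457 to 0.505 for Myl1, from 0.00069 to 0.313 for Actn2 and from 0.00331 to 0.475 for Eno3 over the 20 alternatives, which called Myl1 in 6, Actn2 in 13 and Eno3 in 7. The annotated gene Mylf-ps shares 11.7% of Myl1's 50-base windows.

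Atp2a2 ran against the group. It was at 196, 195 and 159 CPM in Tac111, against 236, 263 and 322 CPM in Tac146, a log2 fold change of -0.58 (SE 0.13, edgeR adjusted p = 0.0284), and 11 of 20 alternatives called it (adjusted p 0.000953 to 0.337). Its level in B6 was 215, 241 and 253 CPM, above all Tac111 libraries and overlapping with those of Tac146. Replicate 4 of Tac146 had the highest Atp2a2 and the lowest fast pump Atp2a1. Atp2a2 counts were 2.75, 3.05 and 2.52% of Atp2a1 counts in Tac111, 3.68, 3.78 and 7.52% in Tac146 and 2.57, 3.15 and 3.33% in B6. Tpm3 was at 134, 140.3 and 130.2 CPM in Tac111, against 149.7, 142 and 165 CPM in Tac146, and did not pass the test (-0.18, adjusted p = 0.183 by edgeR). Of the non-muscle lists, the 6 endothelial markers summed to 101 to 108 CPM in Tac111 and 156 to 172 CPM in Tac146, 3 of them called lower, and the 10 keratinocyte markers summed to 75418 to 86835 CPM in Tac111 and 79979.9 to 105311 CPM in Tac146, 1 of them called lower. On the log2 scale the 6 leukocyte markers were centred on -0.52, with 3 called lower, and the 6 Schwann and nerve markers on -0.45, with 1 called lower, Mbp. Of 9 tested smooth muscle markers 2 were called lower, Myh11 and Mylk, at a median of 0.01. The medians were 0.35 over 7 fibroblast and -0.35 over 6 adipocyte markers, with none called. The part of these tissues in the Atp2a2 and Tpm3 values was not tested.

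The fast troponins had estimates above 0 in Tac111 against Tac146 that missed the edgeR threshold, while DESeq2 and the edgeR fit with no filter on low counts called all 3. Tnnc2 was at 2018, 2077 and 2952 CPM in Tac111, against 1638, 1642 and 1065 CPM in Tac146, with 0.70 (SE 0.20, edgeR adjusted p = 0.0553). Tnnt3 had 0.53 (SE 0.19) and Tnni2, the inhibitory subunit, 0.58 (SE 0.22). The libraries did not overlap for any of the 3 genes. Ube2c, on the opposite strand, overlaps 592 exonic bases of Tnnc2. Tac111 replicate 3 was the highest of the 9 libraries for each, and for 16 of the 36 genes in all. Tcap was at 1566, 1398 and 2161 CPM in Tac111, against 1200.3, 1294 and 604 CPM in Tac146, and had the greatest fold change of the shared genes, 0.73 (SE 0.26, edgeR adjusted p = 0.0899). The intermediate filament gene Des (0.53, adjusted p = 0.051 by edgeR), myoglobin (0.60, 0.0865), Ckm (0.56, 0.0875) and Tpm2 (0.48, 0.0699) had estimates in the same direction and did not pass with edgeR.

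The remaining members did not pass the edgeR test in any comparison. In Tac111 against Tac146 the regulatory light chain Mylpf had a log2 fold change of 0.57 (SE 0.21) and was called in 2 of 20 alternatives, DESeq2 and no filter on low counts. By edgeR in the same comparison, Casq1 had 0.47 (SE 0.21) and Pvalb 0.70 (SE 0.30). The Z-disc genes Myoz1, Myot and Ldb3 had 0.19 (SE 0.18), 0.27 (SE 0.15) and 0.33 (SE 0.12). Estimates below 0 were those of Ttn at -0.33 (SE 0.20), Neb at -0.16 (SE 0.17), Myh2 at -0.15 (SE 0.29) and Myh8 at -0.33 (SE 0.29). The last 4 are among the genes with the longest exons in sum. The comparisons of Tac111 and Tac146 with B6 share the B6 libraries, and each pair of comparisons shares a strain, so their estimates are not independent.

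**Figure D4:**
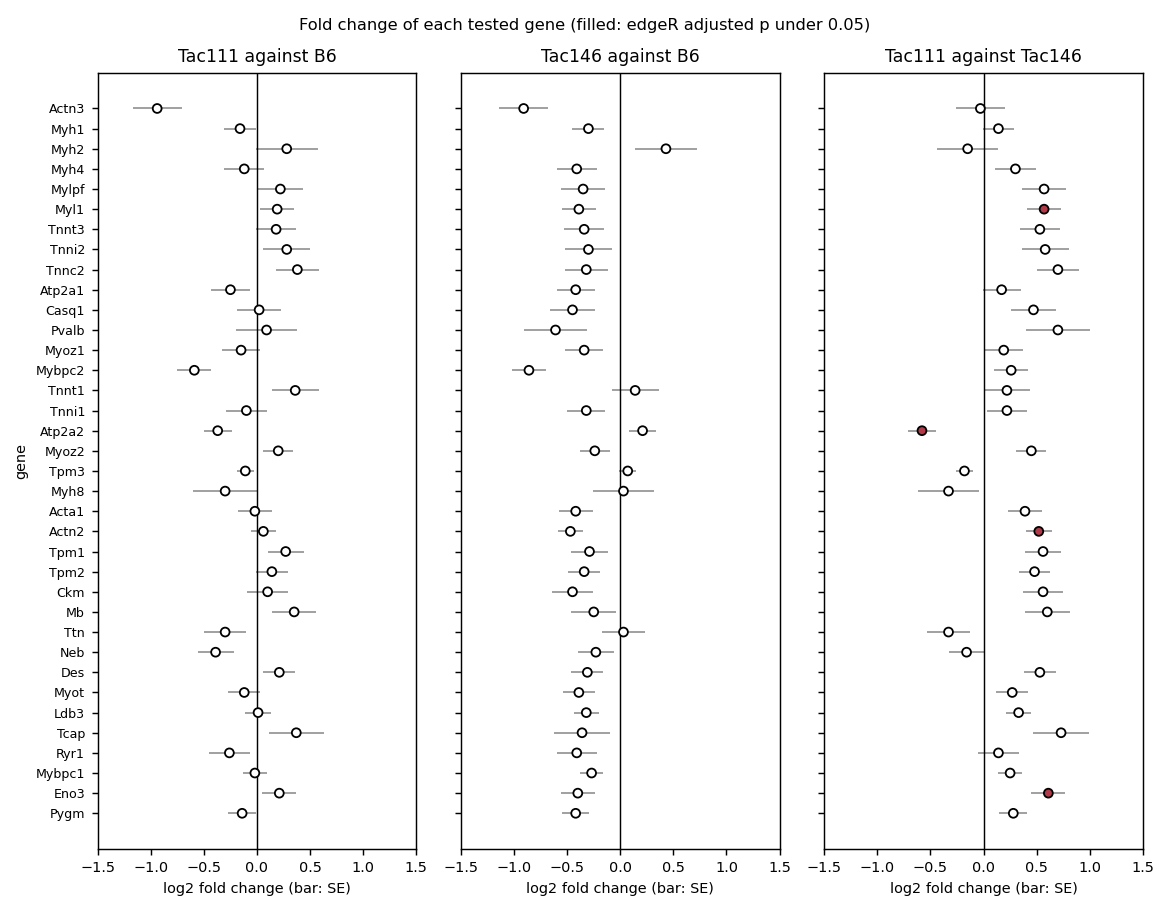
Log2 fold change with its SE of the 36 tested genes in the 3 comparisons, filled where the edgeR adjusted p is under 0.05. The 4 filled points, Myl1, Actn2, Eno3 and Atp2a2, are all in Tac111 against Tac146, and in Tac146 against B6 30 of the points lie left of 0.

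Fold changes varied with transcript length. Across the 36 genes, the Spearman correlation of log2 fold change with exonic length was -0.74 in Tac111 against Tac146, -0.55 in Tac111 against B6 and 0.38 in Tac146 against B6, beside -0.33, -0.30 and 0.14 over 16474 genes. These are given without p, since the genes share their libraries. In Tac111 against Tac146 the 18 members up to the median length of 3320 bases had a median of 0.54 on the log2 scale, and the 18 longer members one of 0.19. Libraries of 1 strain also differed along transcript length. Tac111 replicate 3, set against the other Tac111 libraries, had a correlation of -0.81 over the 36 genes, with medians of 0.31 for the short and -0.17 for the long members. Tac146 replicate 4 went the other way, with 0.60, at medians of -0.63 for the short and -0.35 for the long. The pattern was not particular to these libraries. Among those of B6 the correlation was -0.61 in replicate 1, 0.47 in replicate 2 and 0.02 in replicate 3, and in Tac146 it was -0.51 in replicate 2 and -0.31 in replicate 3. The other Tac111 libraries had 0.76 and 0.67, and since each library is set against the rest of its strain these values depend on one another. With a length offset in the fit, 2 members were called in Tac111 against Tac146 (Actn2 and Atp2a2, with a median of 0.35 over the 36) and 2 in Tac111 against B6 (Actn3 and Mybpc2, with a median of 0.01).

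**Figure D5:**
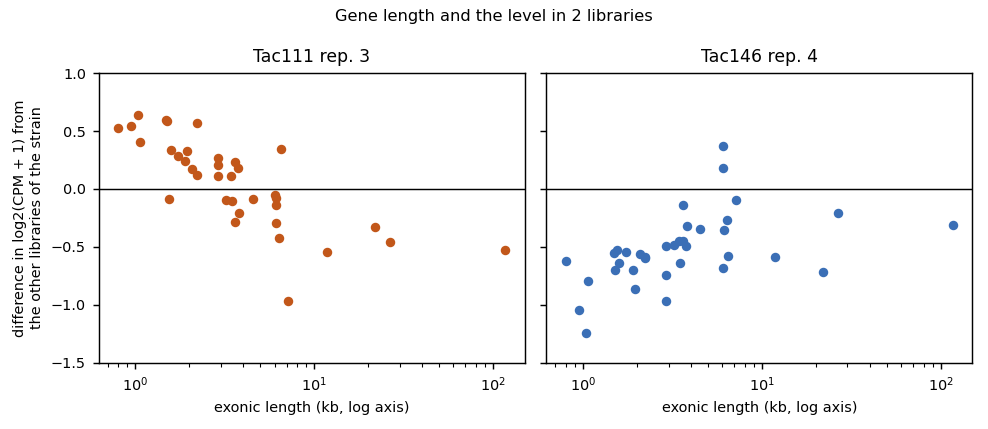
Difference of each of the 36 genes in log2(CPM + 1) between 1 library and the other libraries of its strain, against exonic length in kilobases on a log axis. Points fall with length in Tac111 replicate 3 and climb with it in Tac146 replicate 4, where all but 2 points are below 0.

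Muscle genes outside the 41 leaned the same way as the shared members. Of 60 further genes of excitation and calcium, sarcomere and cytoskeleton, and energy metabolism, none passed the edgeR test in Tac146 against B6, against 0.303% of all genes. Of the 60, 59 were below 0 and the median was -0.33. There were 30 at an unadjusted p under 0.05 and 1 called by DESeq2, for which no share of all genes is given. In Tac111 against Tac146, 11 rose and none fell, against 2.62% of all genes higher and 6.27% lower, with a median of 0.34. That count was 1 with their own mean level as a covariate, 3 with only the 6 libraries compared, 4 with the replicate block, 4 to 13 with 1 library left out, 20 with DESeq2, which also called 1 lower, and 21 with no filter. In Tac111 against B6, 1 rose and 1 fell, against 1.02% and 2.8% of all genes, and the median was 0.03.

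Pgam2, muscle phosphoglycerate mutase, had the smallest adjusted p of them in Tac111 against Tac146. It was at 543, 507 and 677 CPM in Tac111, 308, 297 and 219 CPM in Tac146 and 399.7, 335 and 354 CPM in B6, with all Tac111 libraries highest and all Tac146 libraries lowest. The log2 fold change was 1.07 (SE 0.15, edgeR adjusted p = 0.00293) in Tac111 against Tac146, called in all 20 alternatives, and 0.67 (SE 0.15, edgeR adjusted p = 0.0373) in Tac111 against B6, called in 13 of 20. Hspb7, a small heat shock protein of striated muscle, had 0.83 (SE 0.15, edgeR adjusted p = 0.00907) in Tac111 against Tac146. The Z-disc stretch protein Csrp3 had 0.82 (SE 0.14, edgeR adjusted p = 0.00928), and Lmod3, which nucleates thin filaments, 0.57 (SE 0.12, edgeR adjusted p = 0.0186). Of the other genes listed under metabolism, the ADP-ribosyltransferase Art1 had 0.59 (SE 0.13, edgeR adjusted p = 0.0282) and phosphofructokinase Pfkm 0.51 (SE 0.13, edgeR adjusted p = 0.0352) in that comparison. Without Tac146 replicate 4, 5 of the 60 were called higher in Tac111 against Tac146, with a median of 0.17.

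Pln, phospholamban, the inhibitor of the Atp2a2 pump, fell in Tac111 against B6. It was at 0.673, 0.361 and 0.436 CPM in Tac111, 1.39, 0.860 and 0.772 CPM in Tac146 and 1.17, 1.32 and 1.23 CPM in B6, with -1.32 (SE 0.32, edgeR adjusted p = 0.0487), and 10 of 20 alternatives called it. It is a low-level gene that smooth muscle also uses. Of the smooth muscle markers, edgeR called only the myosin Myh11 in this comparison. Myh11 was at 11.1, 10.9 and 9.39 CPM in Tac111, against 16.0, 21.8 and 15.3 CPM in B6 (-0.76, SE 0.15, edgeR adjusted p = 0.0165). The median of the 9 tested markers was -0.04, with 6 below 0 and 3 above (Tagln 0.03, Smtn 0.09 and Actg2 0.19). The 10 smooth muscle markers summed to 346 to 381 CPM in Tac111, 285 to 363 CPM in Tac146 and 347 to 396 CPM in B6. The largest part of the Tac111 sum was Synpo2, at 190.3, 183 and 184 CPM. The part of smooth muscle in the Pln value was not tested.

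No gene of 20 tested muscle regulators and satellite cell genes, 10 neuromuscular junction genes or 12 genes of fibre atrophy and stress passed the edgeR test in any comparison. Of all genes, 3.82% passed in Tac111 against B6, 0.303% in Tac146 against B6 and 8.89% in Tac111 against Tac146. At such shares, no call in lists this short says little. The unadjusted and DESeq2 counts below have no share of all genes beside them. The medians of these lists lay between -0.22 and 0.11. Of the 20 regulators, 9 lay below B6 without overlap in Tac111 and 1 above, against 15.8% and 13.7% of all genes. In Tac146 against B6, 18 of the 20 were below 0. There 7 lay below B6 without overlap and 0 above, against 6.29% and 6.36% of all genes. The other lists had 0 to 1 gene below B6 and 0 to 3 above in these comparisons. At an unadjusted p under 0.05 there were 8, 0 and 4 genes of these lists in Tac111 against B6, 4, 0 and 1 in Tac146 against B6, and 6, 3 and 2 in Tac111 against Tac146. DESeq2 called 1, 0 and 2 genes (Pax3, Mt1 and Mt2) in Tac111 against B6, none in Tac146 against B6, and 1 of each list (Mef2a, Chrnb1 and Trim63) in Tac111 against Tac146, while limma called none. These 6 genes are named after their values were seen. Of the 7 tested cardiac and craniofacial isoforms, 1 passed the edgeR test in Tac111 against Tac146, against 8.89% of all genes, and none in the other comparisons. It was Actc1, cardiac alpha-actin, with 0.87 (SE 0.16, edgeR adjusted p = 0.0115). Actc1 was at 73.3, 54.6 and 70.7 CPM in Tac111, 43.3, 36.0 and 29.1 CPM in Tac146 and 62.9, 50.1 and 60.2 CPM in B6. Tac111 overlapped with B6 (0.20, SE 0.16). All Tac146 libraries lay below B6 (-0.68, SE 0.16), where DESeq2 called Actc1 and edgeR did not.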

How the data were processed

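The 9 libraries of polyadenylated RNA from labial mucosa biopsies, prepared with the Illumina TruSeq Stranded mRNA kit per the labels' protocols, were grouped by the strain given in the labels. Per the file headers, the authors deposited expected counts by gene symbol, which can be fractional. STAR, RSEM and GRCm38 were used, per the submitters' processing notes; the sources used here give no version, annotation or strand setting, so overlapping genes on opposite strands and near-identical copies may share reads. Lines of 107 repeated symbols were summed, and 27 date-like names were kept apart, which gave 55342 names. Replicates of a strain differed beyond sampling noise (chi-square per degree of freedom 14.6 to 86.4).

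Expected counts were rounded and fitted with edgeR 4.0.16 in R 4.3.3 (quasi-likelihood test, TMM factors, filterByExpr, 1 mean per strain over all 9 libraries, 6 residual degrees of freedom). Benjamini-Hochberg adjustment ran over 16523 genes, and a gene was called at an adjusted p under 0.05. SEs are approximate, taken as the absolute log2 fold change over the square root of F. Exonic length, for CPM per kilobase, is the union of exons in GENCODE M21 on GRCm38. Same-numbered libraries had correlations of -0.07 to 0.19 in their deviations from the strain means, and the labels do not tie a number to an animal, so the main fit has no block.

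The 41 genes, the lists and the tests were chosen with earlier results of these data known. All 41 genes are named or counted. Of each other list, up to 3 called genes with the smallest adjusted p are named per comparison. Alternatives were upper-quartile and median-ratio scaling, DESeq2 1.42.0, limma 3.58.1 on log2(CPM + 1), no filter, a filter of 1 CPM in 3 libraries, a replicate block, a covariate of the mean log2 level of other muscle genes, only the 6 libraries compared, and each library left out. A length offset and a fit without both Tac111 replicate 3 and Tac146 replicate 4 were added after seeing the data. The main edgeR fit was first checked on simulated counts, for Tac111 against B6 only. The other comparisons and the alternatives were not checked in this way. Tables and figures used Python 3.11.15, pandas 2.3.3 and matplotlib 3.10.9.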

Additional observations from a re-analysis of the deposited data

How the results depend on the processing

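In Tac111 against B6, where none of the 36 members was called, 2 were called lower (Actn3 and Mybpc2) with no filter on low counts, a replicate block, the muscle content covariate, only the 6 libraries compared, DESeq2 or a length offset, 1 (Actn3) without both Tac111 replicate 3 and Tac146 replicate 4, and 0 to 2 with 1 library left out (2 without Tac146 replicate 2 or replicate 4). In Tac146 against B6, likewise 0, the count was 2 with no filter, 3 with DESeq2, 0 with the replicate block and 0 to 1 with 1 library left out (1 without Tac146 replicate 2). In Tac111 against Tac146 the 4 calls became 15 with no filter, 16 with DESeq2, 0 with the replicate block, the covariate or only the 6 libraries, 2 with the length offset, 1 without both libraries, and 0 to 5 with 1 library left out (5 without Tac146 replicate 2, 0 without Tac111 replicate 2, Tac146 replicate 3 or Tac146 replicate 4, and 1 or 2 otherwise). With the replicate block the median there was 0.15, beside 0.31 without it and 0.18 without Tac146 replicate 4, the only library numbered 4. The labels do not say what the numbers mark. The causes were not tested. Shares of all genes called under the alternatives are not given here. Of 2160 single-gene values under 20 alternatives, 43 lost and 49 gained a call, none of the called ones changed sign, and 77 uncalled ones did. Without mitochondrial transcripts the mean summed share was 6.38% in Tac111, 4.84% in Tac146 and 6.25% in B6. Without Tpm1, Tpm2, Tpm3, Atp2a2 and Des it was 5.25% in Tac111, 4.05% in Tac146 and 5.26% in B6. The slow to fast ratio was 0.416% in Tac111, 0.543% in Tac146 and 0.402% in B6 for troponins, and 0.579, 0.977 and 0.669% per kilobase. Depth limits Myh3, Myh7, Myl2, Myl3 and Tnnc1, which could not be tested.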
